A study of Mus musculus with 6 samples.

Results

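The genes described here are the 10 that encode the MHC class II presentation machinery of the mouse and its transactivator: H2-Aa, H2-Ab1, H2-Eb1, H2-DMa, H2-DMb1, H2-DMb2, H2-Oa, H2-Ob, Cd74 and Ciita. They were chosen by symbol, matched to the Ensembl identifiers of the count table through GENCODE M21, and all 10 of 10 were present among the 26519 genes of the table. RNA sequencing had been run on dendritic cells taken from MC38 tumours, a mouse colon carcinoma line, 10 days after inoculation. One group of 3 libraries came from tumours in MAVS knockout hosts and the other group of 3 from tumours in wild-type (WT) hosts. MAVS is the adaptor on mitochondria through which sensors of RNA in the cytosol signal, and the series asks what host MAVS does to antitumour immunity. The tumour cells were the same line in both groups and the deletion was in the host. The labels give neither the strain, age or sex of the hosts, nor the design of the knockout allele, nor whether a replicate was 1 animal or a pool, so every p-value here is set against the spread of these 6 samples alone.

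MHC class II molecules are paired alpha and beta chains that display peptides from endosomes to CD4+ T cells, and dendritic cells are the cells that prime T cells by this route. In the mouse, H2-Aa with H2-Ab1 forms I-A and H2-Eb1 is the beta chain of I-E. The invariant chain, Cd74, fills the groove of new molecules and guides them to endosomes, where its last fragment (CLIP) is exchanged for peptide by H2-DM, a pair of H2-DMa with a beta chain from H2-DMb1 or H2-DMb2. H2-O, a pair of H2-Oa with H2-Ob, inhibits H2-DM and is best known from B cells. Ciita binds no DNA itself: it is recruited by the factors that sit on the X and Y boxes of class II promoters, and its amount sets class II transcription in most cells.

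None of the 10 genes differed between MAVS knockout and WT hosts at an adjusted p of 0.05 (edgeR, quasi-likelihood test, Benjamini-Hochberg over the 12580 tested genes), beside 2.81% of all tested genes (1.76% called higher and 1.05% called lower). All 10 passed the filter on low counts. At an unadjusted p below 0.05 there were 2 of the 10, H2-Eb1 and H2-Ob, beside 16.0% of tested genes. The DESeq2 Wald test and limma-voom also called 0 of the 10, beside 6.18% and 2.54% of tested genes. By point estimate 4 genes were higher and 6 lower in knockout hosts, with a median log2 fold change of -0.07, beside -0.0022 over all tested genes. In bulk RNA fewer cells of a type and less RNA per cell cannot be told apart. The 95% interval reached a 2-fold change for 1 of the 10, H2-Ob, and stayed inside it for the other 9. These are relative changes: scaled by library size alone, the median of all tested genes was -0.17 on the log2 scale, and H2-Aa and H2-Ab1 then had values of -0.07 and -0.14 in place of 0.10 and 0.03. On that scaling all members shifted down, H2-Eb1 to 0.08, Cd74 to 0.07, H2-DMa to -0.18, H2-DMb1 to -0.30, H2-DMb2 to -0.39, Ciita to -0.40, H2-Oa to -0.51 and H2-Ob to -0.70, and 0 of the 10 passed.

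Class II promoters are known for an X box and a Y box at a fixed distance, the sites through which Ciita acts, and their letters can be seen in the members. RefSeq promoters (GRCm38.p6) were found for 7 of the 10 genes: H2-Oa, H2-DMa, H2-DMb2, H2-DMb1, H2-Ob, H2-Aa and H2-Eb1. The 6 below are shown because a Y box was found in them. Each is the 60 bases around it, read 5′ to 3′ on the strand of the gene. Capitals mark the letters searched on both strands, AAC and ATGATG with any 2 bases between them for the X box and TGATTGG for the Y box. These letters were set after the promoters had been read, and no X match overlapped a Y match.
H2-Eb1 (chr17:34305761-34305820, plus strand): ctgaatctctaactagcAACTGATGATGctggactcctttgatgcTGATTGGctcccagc
H2-Aa (chr17:34287859-34287918, minus strand): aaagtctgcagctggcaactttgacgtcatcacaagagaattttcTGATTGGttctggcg
H2-DMb1 (chr17:34153083-34153142, plus strand): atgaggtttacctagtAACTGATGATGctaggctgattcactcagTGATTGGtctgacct
H2-DMb2 (chr17:34145112-34145171, plus strand): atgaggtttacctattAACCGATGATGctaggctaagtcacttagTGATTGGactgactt
H2-Ob (chr17:34238801-34238860, plus strand): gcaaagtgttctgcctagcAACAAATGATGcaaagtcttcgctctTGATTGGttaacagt
H2-Oa (chr17:34092289-34092348, plus strand): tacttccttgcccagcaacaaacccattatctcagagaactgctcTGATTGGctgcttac
The Y box letters stood in 6 of these 7 genes and in 7.23% of the 32851 promoters of the table, counted over the 250 bases before each start. The X box letters stood in 4 of the 7 and in 0.119% of all promoters. In H2-Eb1, H2-DMb1, H2-DMb2 and H2-Ob the X box was followed by the Y box after 17, 18, 18 and 15 bases. That order within 40 bases occurred in 4 promoters of the whole table (0.0122%), and these were those 4. In H2-Aa and H2-Oa the X letters as spelled were not matched, and in H2-DMa neither motif was matched in the 2 promoters listed. The matches are a description of letters, and their part in the values of these genes was not tested.

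Ciita, the transactivator (ENSMUSG00000022504, chromosome 16, 10480059 to 10528418 in mm10), showed no detectable change. It had 75.8, 89.4 and 82.7 CPM (reads relative to the TMM-scaled library size) in the knockout libraries and 87.9, 84.5 and 119.3 CPM in the WT libraries. The groups overlapped, with WT replicate 3 above all others. The log2 fold change was -0.24 (SE 0.15, 95% interval -0.56 to 0.09, adjusted p = 0.504 by edgeR). Without WT replicate 3 it was -0.06 (adjusted p = 0.898 by edgeR). Gene counts do not separate the alternative promoters of Ciita, which differ between cell types and in their response to interferon-gamma. Exons of Dexi, on the opposite strand, cover 3.5% of the exon length of Ciita, and whether the counting used strand is unknown here.

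The chains of I-A were close in both groups. H2-Ab1 (ENSMUSG00000073421, chromosome 17, 34257689 to 34269419), the I-A beta chain, ranked 2 to 5 of all genes by counts. It had 14568, 15703 and 17718 CPM in the knockout libraries and 14791, 15527 and 16703 CPM in the WT libraries. The groups covered the same range, and the log2 fold change of 0.03 (SE 0.09, adjusted p = 0.922 by edgeR) had a 95% interval from -0.17 to 0.23, or 0.886-fold to 1.18-fold. H2-Aa (ENSMUSG00000036594, chromosome 17, 34282744 to 34287823), the alpha chain, had 6386, 6225 and 6933 CPM in the knockout libraries and 5870, 5709 and 6622 CPM in the WT libraries. Its groups overlapped too, with a log2 fold change of 0.10 (SE 0.09, 95% interval -0.10 to 0.30, adjusted p = 0.659 by edgeR). Of the I-A chains, then, neither interval reached a 1.5-fold change in either direction.

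H2-Eb1 (ENSMUSG00000060586, chromosome 17, 34305867 to 34316674), the I-E beta chain, was the 1 member of the 10 whose groups did not overlap, a separation seen in 21.8% of all tested genes. It had 3888, 4050 and 4450 CPM in the knockout libraries and 3397, 3401 and 3639 CPM in the WT libraries. All 3 knockout values lay above all 3 WT values, but the difference did not pass: the log2 fold change was 0.25 (SE 0.09, 95% interval 0.05 to 0.44, unadjusted p = 0.0172, adjusted p = 0.191 by edgeR). It lay between 0.19 and 0.29 when single libraries were left out, and was 0.08 with library size alone. The partner chain of H2-Eb1 is annotated as the polymorphic pseudogene H2-Ea-ps, which had 5, 4 and 6 reads in the knockout libraries and 12, 4 and 5 reads in the WT libraries. The related beta chain gene H2-Eb2 had 3, 4 and 12 reads in the knockout libraries and 10, 7 and 4 reads in the WT libraries. Both stood below 1 CPM in every library and were not tested.

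Cd74 (ENSMUSG00000024610, chromosome 18, 60803848 to 60812652), the invariant chain, was among the 3 genes with the most counts in every library. It had 18301, 20991 and 25027 CPM in the knockout libraries and 14765, 20220 and 19508 CPM in the WT libraries. The groups overlapped, with WT replicate 1 lowest and knockout replicate 3 highest. The log2 fold change was 0.24 (SE 0.14, 95% interval -0.07 to 0.54, adjusted p = 0.454 by edgeR), and it was 0.10 without WT replicate 1 and 0.11 without knockout replicate 3. Gene counts do not separate the short and long forms of the invariant chain. Together the 10 genes took 4.34%, 4.67% and 5.40% of all counts in the knockout libraries and 4.46%, 5.16% and 5.16% in the WT libraries, so their share of the sequenced RNA also overlapped between groups.

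The H2-DM genes, which load peptide, did not pass either. H2-DMa (ENSMUSG00000037649, chromosome 17, 34119541 to 34139101), the alpha chain, had 1105, 1111 and 1219 CPM in the knockout libraries and 1320, 1046 and 1087 CPM in the WT libraries, a log2 fold change of -0.01 (SE 0.11, 95% interval -0.25 to 0.23, adjusted p = 0.987 by edgeR). H2-DMb1 (ENSMUSG00000079547, chromosome 17, 34153072 to 34160230), the main beta chain gene here, had 1392, 1342 and 1470 CPM in the knockout libraries and 1579, 1461 and 1560 CPM in the WT libraries. The groups touched, since the highest knockout value was just above the lowest WT value. H2-DMb2 (ENSMUSG00000037548, chromosome 17, 34143307 to 34151555) had 248.2, 238.5 and 311.5 CPM in the knockout libraries and 317.6, 317.8 and 294.6 CPM in the WT libraries. Knockout replicates 1 and 2 were below all WT values and knockout replicate 3 was not. The log2 fold changes were -0.13 for H2-DMb1 (SE 0.09, adjusted p = 0.544 by edgeR) and -0.22 for H2-DMb2 (SE 0.12, adjusted p = 0.421 by edgeR), and that of H2-DMb2 was -0.35 without knockout replicate 3.

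The values of H2-DMb1 and H2-DMb2 taken singly are uncertain, because the genes are copies of each other. Their main transcripts, of 1404 and 1424 bases, were identical at 93.9% of 1255 aligned bases. Of all 50-base windows of the H2-DMb1 transcript 27.2% occurred unchanged in that of H2-DMb2, and of all 100-base windows 13.7%, so reads of those stretches fit both genes. Summed, the beta chain genes had 1640, 1580 and 1782 CPM in the knockout libraries and 1897, 1779 and 1855 CPM in the WT libraries. The highest knockout sum passed the lowest WT sum by a small margin. The log2 fold change of the sum was -0.14 (SE 0.09, 95% interval -0.34 to 0.05, adjusted p = 0.490 by edgeR). For H2-DMa, exons of Brd2 on the opposite strand cover 10.4% of its exon length; Brd2, a bromodomain protein gene, had a log2 fold change of -0.04 (SE 0.22).

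The H2-O genes, the inhibitors of H2-DM, had the most negative estimates of the 10, and neither passed. H2-Ob (ENSMUSG00000041538, chromosome 17, 34238903 to 34254414), the beta chain, had 26.3, 33.3 and 32.7 CPM in the knockout libraries and 37.8, 32.9 and 62.7 CPM in the WT libraries. The groups overlapped, and WT replicate 3 stood well above the rest. The log2 fold change was -0.53 (SE 0.23, 95% interval -1.04 to -0.03, unadjusted p = 0.0400, adjusted p = 0.287 by edgeR). It was -0.20 without WT replicate 3 (adjusted p = 0.679 by edgeR). In a fit with no filter on low counts, in which 924 of 26519 genes were called, H2-Ob was called lower (-0.54, adjusted p = 0.0440 by edgeR). H2-Oa (ENSMUSG00000024334, chromosome 17, 34092340 to 34095234), the alpha chain, rested on 103, 151 and 165 reads in the knockout libraries and 210, 263 and 238 reads in the WT libraries. These were 5.79, 10.1 and 12.1 CPM in the knockout libraries and 10.4, 14.0 and 11.0 CPM in the WT libraries, with knockout replicate 1 lowest. The log2 fold change was -0.34 (SE 0.28, 95% interval -0.96 to 0.28, adjusted p = 0.632 by edgeR), and -0.09 without knockout replicate 1. Its antisense partner BC051537 covers 22.8% of the exon length of H2-Oa, and was not tested. Of 7 B cell markers, cells in which H2-O is high, 3 were tested. Of these 1, Ighm, fell by 1.93 on the log2 scale, beside 1.05% of all tested genes called lower. The others tested did not pass, with log2 fold changes of -1.73 for Cd79b (SE 0.45) and 0.63 for Cd22 (SE 0.37). The list summed to 13.6 to 18.9 CPM in knockout and 34.5 to 56.4 CPM in WT libraries, most of it Ighm (9.51 CPM on average in knockout and 36.1 CPM in WT hosts). Ms4a1, not tested, had 0 reads in every knockout library and 9, 0 and 7 reads in the WT libraries. The part of B cell markers in the values of H2-Ob and H2-Oa was not tested.

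**Figure D1:**
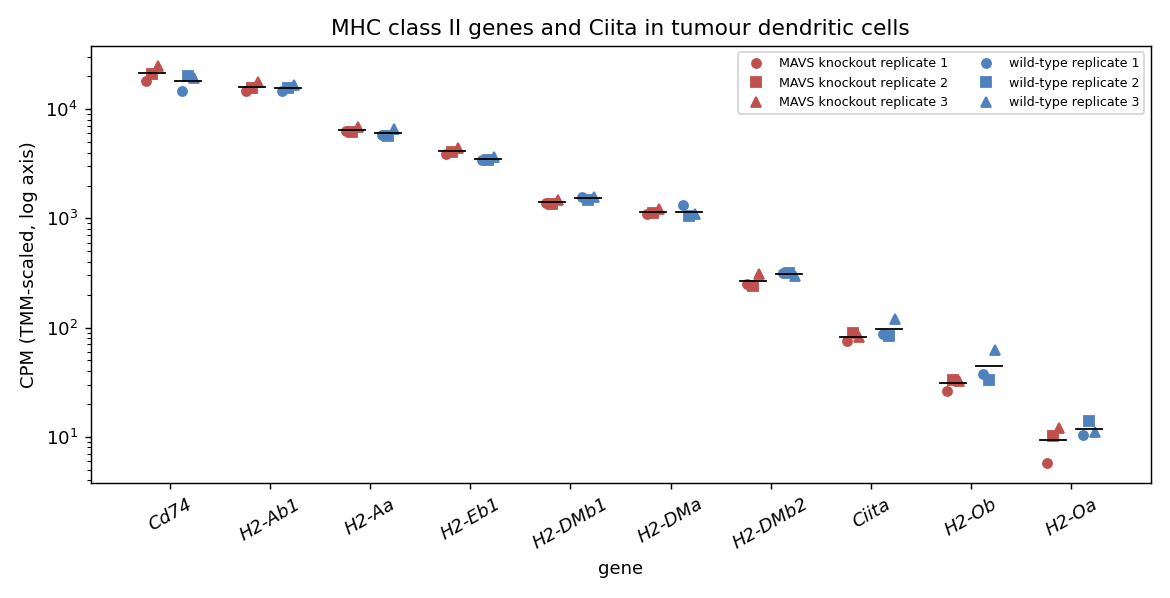
Level of each class II gene in each library, in TMM-scaled CPM on a log axis, with knockout libraries in red left of WT libraries in blue; symbols are replicates and black bars group means. H2-Eb1 is the gene whose groups are apart, and WT replicate 3 stands high for Ciita (119.3 CPM) and H2-Ob (62.7 CPM).

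**Figure D2:**
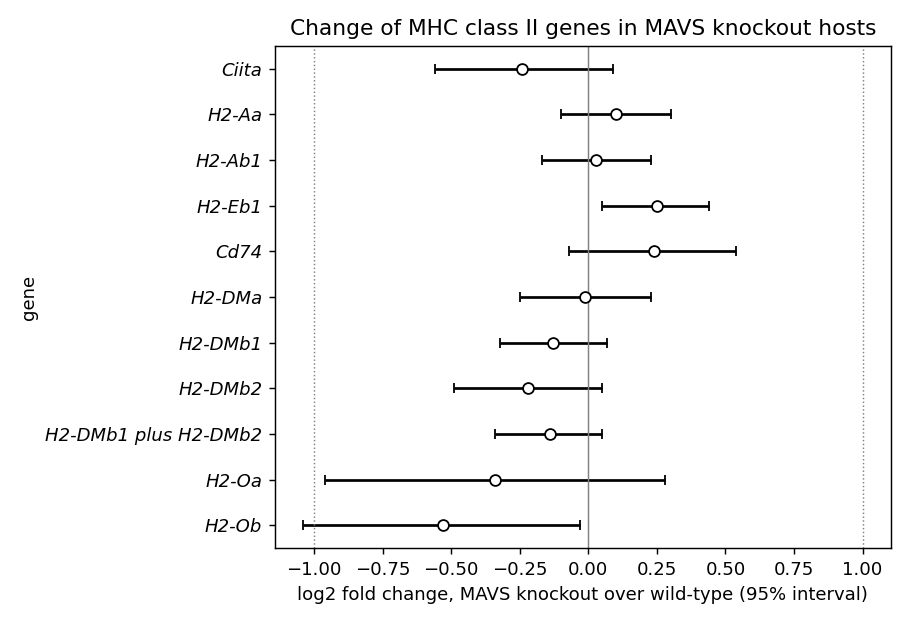
Log2 fold change of each class II gene and of the summed H2-DMb genes, knockout over WT, with 95% intervals from edgeR's fit (n = 3 each); dotted lines mark a 2-fold change. Intervals of H2-Eb1 (0.05 to 0.44) and H2-Ob (-1.04 to -0.03) leave out 0, but neither gene passed after adjustment over all tested genes.

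Levels can be compared between genes only per length, here as RPKM, the scaled CPM divided by the exon length in kilobases. Cd74 stood first at 12769 ± 2016 RPKM in knockout and 10819 ± 1766 RPKM in WT hosts (SD, n = 3 each), followed by H2-Ab1 at 6229 ± 621 RPKM in knockout and 6103 ± 376 RPKM in WT hosts. H2-Eb1 (2124 ± 149 RPKM in knockout and 1790 ± 71.2 RPKM in WT hosts) and H2-Aa (1715 ± 97.7 RPKM in knockout and 1597 ± 128 RPKM in WT hosts) came next, then H2-DMb1 (834 ± 38.5 RPKM in knockout and 912 ± 37.7 RPKM in WT hosts), H2-DMa (332 ± 18.6 RPKM in knockout and 334 ± 42.8 RPKM in WT hosts) and H2-DMb2 (152 ± 22.7 RPKM in knockout and 178 ± 7.65 RPKM in WT hosts). Ciita (8.67 ± 0.715 RPKM in knockout and 10.2 ± 2.01 RPKM in WT hosts), H2-Oa (6.63 ± 2.29 RPKM in knockout and 8.38 ± 1.41 RPKM in WT hosts) and H2-Ob (5.72 ± 0.723 RPKM in knockout and 8.27 ± 2.97 RPKM in WT hosts) were last and, in WT hosts, lay within 1 SD of each other. The order depends on the length used: these values take the merged exons of every annotated transcript, and with the main coding transcript alone H2-Aa (5775 RPKM in knockout and 5378 RPKM in WT hosts) came before H2-Eb1 (2474 RPKM in knockout and 2084 RPKM in WT hosts). On that length Cd74 (15205 ± 2401 RPKM in knockout and 12883 ± 2103 RPKM in WT hosts) and H2-Ab1 (13198 ± 1316 RPKM in knockout and 12932 ± 796 RPKM in WT hosts) overlapped within their SDs. The lowest genes changed order too: with the main coding transcript H2-Ob (11.5 RPKM in knockout and 16.7 RPKM in WT hosts) came before H2-Oa (8.58 RPKM in knockout and 10.8 RPKM in WT hosts). Ciita then had 13.75 RPKM in knockout and 16.2 RPKM in WT hosts. On either length the classical chains and Cd74 stood above H2-DM, and H2-DM above H2-O and Ciita.

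Ratios between members within a library do not depend on depth or scaling, and 4 of them were tested with a two-sided exact permutation test, which with 3 libraries against 3 cannot give a p below 0.1. The ratio of H2-Oa plus H2-Ob counts to H2-DM counts, inhibitor to editor, was 1.168, 1.615 and 1.491 per 100 in the knockout libraries and 1.496, 1.663 and 2.505 per 100 in the WT libraries. WT replicate 3 was highest and the other libraries overlapped, with a mean log2 difference of -0.38 (exact permutation p = 0.2, adjusted p = 0.4), or -0.16 without WT replicate 3. The ratio of Cd74 to H2-Ab1 counts was 1.26, 1.34 and 1.41 in the knockout libraries and 0.998, 1.30 and 1.17 in the WT libraries, a log2 difference of 0.21 (exact permutation p = 0.2, adjusted p = 0.4). It was 0.11 without WT replicate 1. H2-DMb1 to H2-DMb2 stood at 5.61, 5.63 and 4.72 in knockout and 4.971, 4.596 and 5.296 in WT libraries (log2 difference 0.10, exact permutation p = 0.3, adjusted p = 0.4). H2-Ab1 to H2-Aa, the chains of I-A, stood at 2.28, 2.52 and 2.56 in knockout and 2.52, 2.72 and 2.52 in WT libraries (log2 difference -0.08, exact permutation p = 0.6, adjusted p = 0.6). The ratio of the beta chains, H2-Eb1 to H2-Ab1, was added after its values were seen and is given without a test. It was 0.267, 0.258 and 0.251 in the knockout libraries and 0.230, 0.219 and 0.218 in the WT libraries, with no overlap and an SD of 0.04 on the log2 scale in each group.

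**Figure D3:**
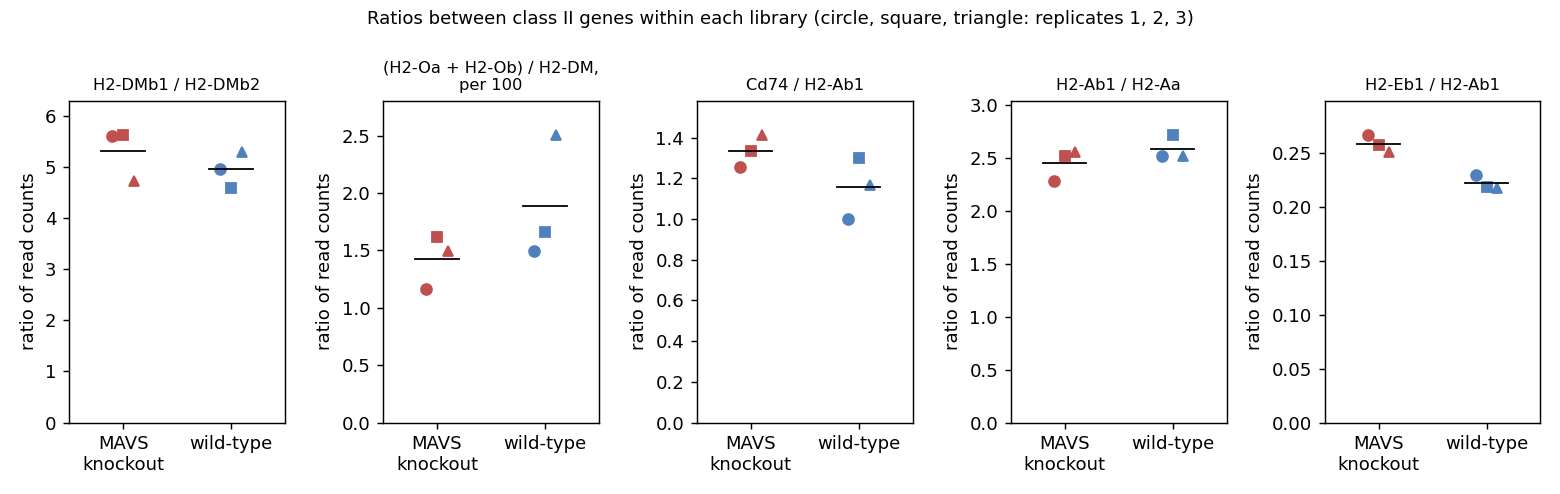
Ratios of read counts between class II genes within each library (vertical axes, from 0), with knockout libraries in red left of WT libraries in blue and black bars for group means. The groups overlap in the first 4 panels and are apart for H2-Eb1 to H2-Ab1, where knockout libraries run from 0.251 to 0.267 and WT libraries from 0.218 to 0.230. The ratio of H2-Eb1 to H2-Ab1 was added after its values were seen and was not tested.

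Over the 6 libraries, log2 CPM of H2-Ob had a Pearson correlation of 0.98 with Ciita (Spearman 0.94), and the other members had values from 0.52 (H2-DMb1) to -0.25 (H2-Eb1). Without WT replicate 3 those of H2-Ab1 and H2-Aa were 0.15 and -0.38, in place of 0.39 and 0.20, and without the 2 libraries farthest from the median of Ciita they were -0.72 and -0.43. Part of the value for H2-Ob came from 1 library: it was 0.89 without WT replicate 3 and 0.50 without that library and knockout replicate 1, the 2 farthest from the median of Ciita. Among 8660 genes outside the class II set with a mean of at least 5 CPM, the 5 nearest to Ciita were Rab7b, Slc35b2, Telo2, Mob1a and Dph1, with correlations of 0.961 to 0.922. Among the genes nearest to H2-Ob were Slc35b2, Rab7b, Ppt1 and Cadm1 (0.979 to 0.939), of which Rab7b and Slc35b2 were shared with Ciita. The 5 nearest to H2-Ab1 were Kif3b, Gpr18, Golga5, Gabpb1 and Ip6k1 (0.981 to 0.949). None of these genes differed between the groups (edgeR adjusted p from 0.220 to 1.00), and the correlations describe 6 points that share their libraries and depth.

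On chromosome 17 the 8 H2 genes lie within 224.3 kb, from H2-Oa to H2-Eb1. Of 12 other annotated genes in that interval 9 were in the count table, 6 were tested and 0 were called. The genes for antigen processing on MHC class I lie between H2-DMb1 and H2-Ob. They are Psmb9 (0.27, SE 0.15) and Psmb8 (0.26, SE 0.16) of the immunoproteasome and Tap1 (0.40, SE 0.17) and Tap2 (0.24, SE 0.18) of the peptide transporter, given as log2 fold changes. All 4 of these had positive estimates, which with library size alone were 0.07 to 0.23, while the class II genes on either side, H2-DMb1 and H2-Ob, had negative ones, and no difference in the interval passed the test.

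**Figure D4:**
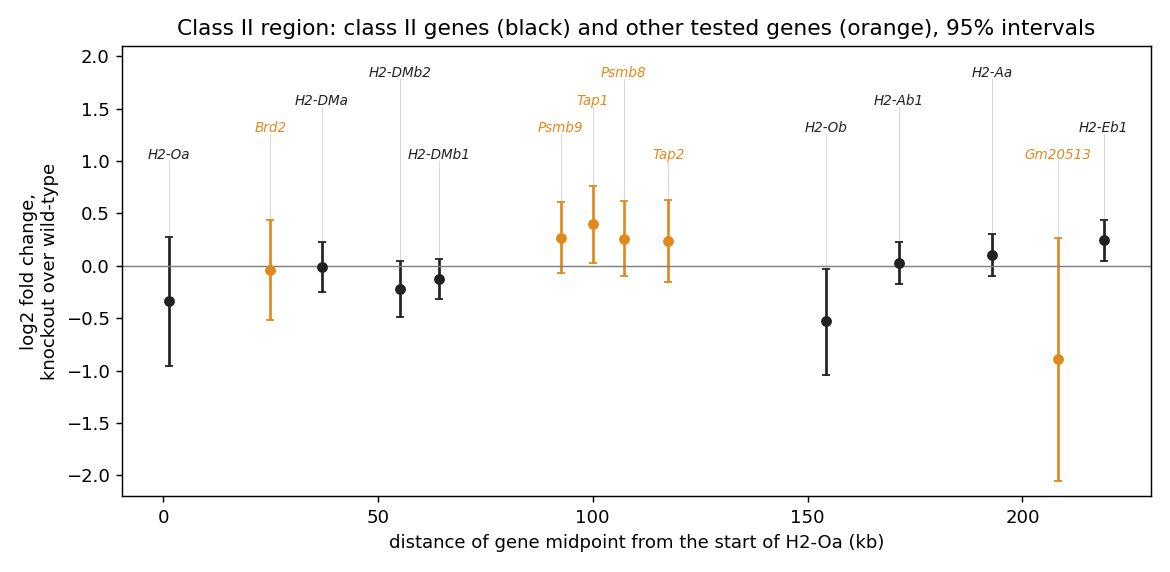
Log2 fold change, knockout over WT, of each tested gene of the class II interval (vertical axis, with 95% intervals) against the distance of its midpoint from the start of H2-Oa in kb; class II genes are black and other genes orange. Estimates of Psmb9, Tap1, Psmb8 and Tap2 are all above 0, between H2-DMb1 (-0.13) and H2-Ob (-0.53).

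Factors that act on class II promoters did not pass. Of the 10 listed (the RFX subunits that bind the X box, the NF-Y subunits that bind the Y box, Creb1 and coactivators) 0 rose and 0 fell, with a median log2 fold change of 0.15, or -0.02 with library size alone. The smallest p values were those of Creb1 (33.7 ± 2.88 CPM in knockout and 44.3 ± 6.92 CPM in WT hosts, SD, n = 3 each, log2 fold change -0.39, adjusted p = 0.222 by edgeR) and Crebbp (0.35, adjusted p = 0.344 by edgeR). Rfx5, an RFX subunit, averaged 3.66 CPM in knockout and 3.64 CPM in WT hosts (log2 fold change 0.00, SE 0.35). Of 13 regulators of Ciita and parts of interferon-gamma signalling 0 passed, with a median of 0.21. The feedback inhibitor Socs1 came nearest, at 66.6 ± 2.11 CPM in knockout and 31.3 ± 13.5 CPM in WT hosts (SD, n = 3 each), for a log2 fold change of 1.09 (SE 0.26, adjusted p = 0.0540 by edgeR). Irf2 (0.70, SE 0.19, adjusted p = 0.0953 by edgeR) had the next smallest p. In 6 of the 14 other fits 1 to 4 of the 13 passed.

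Of the class II pathway lists, the one of endosomal processing, mostly proteases that cut antigen and the invariant chain, held genes that rose. Of 10 listed genes 5 rose, 0 fell and 5 did not pass, with a median log2 fold change of 0.48, beside 1.76% of all tested genes called higher. The list was chosen with earlier results of these data known. Ctss, which removes the last stretch of the invariant chain, stood at 7965 ± 558 CPM in knockout and 5535 ± 764 CPM in WT hosts (SD, n = 3 each), for a log2 fold change of 0.53 (SE 0.11, adjusted p = 0.0364 by edgeR). Ctsl, which does that step in thymic epithelium, rose by 0.67, Ctsd by 0.75, Ctsc by 0.50 and Lgmn, an asparagine endopeptidase, by 0.50. The thiol reductase Ifi30 (0.11, SE 0.14) and the protease inhibitor Cst3 (-0.34, SE 0.12) did not pass, and neither did the proteases Ctsb (0.46, SE 0.11), Ctsz (0.35, SE 0.09) and Ctsh (0.19, SE 0.09). Without any 1 library other than WT replicate 3 the count of 5 was 1, and with library size alone it was 2.

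Genes for turnover and transport and the partners of Cd74 did not pass in the fit reported. Of 13 genes for turnover and transport 0 passed (median log2 fold change 0.22). The smallest p values were those of the tetraspanin Cd81 (0.34, SE 0.10, adjusted p = 0.106 by edgeR) and of Sppl2a, the membrane protease that clears the stub of Cd74 (0.56, SE 0.17, adjusted p = 0.132 by edgeR). March1, the ubiquitin ligase that removes class II from the surface, had a log2 fold change of 0.39 (SE 0.13, adjusted p = 0.164 by edgeR), and Cd83, which opposes it, -0.08 (SE 0.12). Of 5 partners of Cd74 0 passed (median 0.16, or -0.01 with library size alone). Its ligand Mif had 570.9 ± 43.1 CPM in knockout and 431.9 ± 79.4 CPM in WT hosts (SD, n = 3 each, log2 fold change 0.40, adjusted p = 0.164 by edgeR), and the coreceptor Cxcr4 a log2 fold change of 0.51 (SE 0.28, adjusted p = 0.423 by edgeR).

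MHC class I genes are given beside the class II genes as the other arm of presentation. Of 16 listed 5 rose, 0 fell and 11 did not pass, beside 1.76% of all tested genes called higher. The median log2 fold change of the list was 0.45 (0.28 with library size alone). The class II set had 0 of 10 called, beside 2.81% of all tested genes in either direction, and a median of -0.07. The difference between the sets was not tested. H2-Q6 rose by 0.78, H2-K1 by 0.51, B2m by 0.65, H2-T23 by 0.70 and H2-Q7 by 0.73 on the log2 scale. The H2 genes among them have near-identical relatives between which the counting could split reads. Nlrc5, the class I counterpart of Ciita, had a log2 fold change of 0.42 (SE 0.17, adjusted p = 0.243 by edgeR). Leaving out WT replicate 1 left 3 of the 5 calls in number, leaving out WT replicate 2 or any knockout library left 0, and library size alone left 1.

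**Figure D5:**
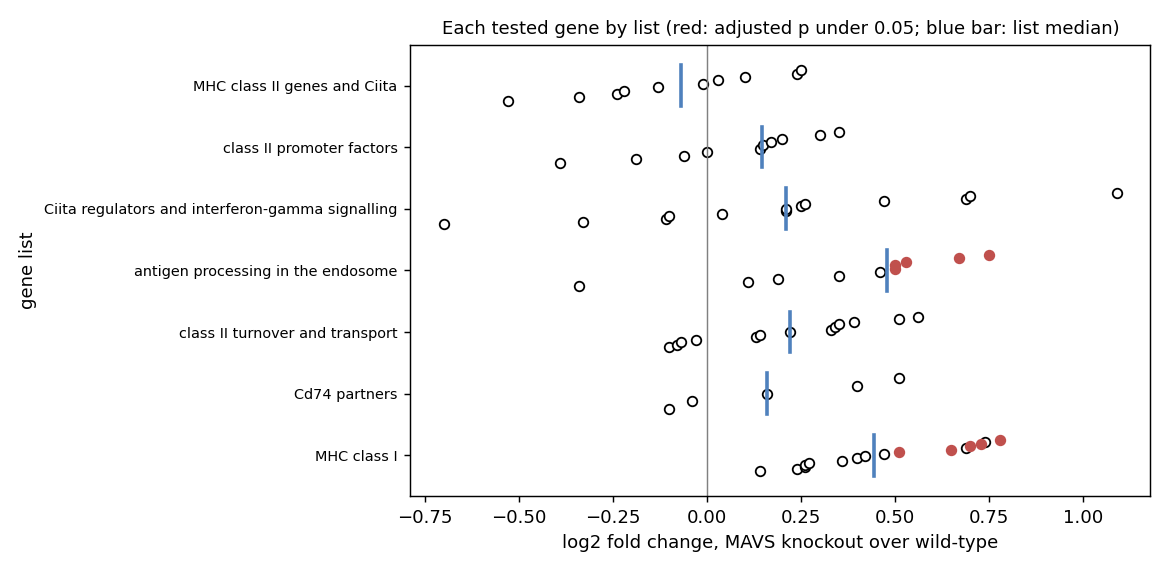
Log2 fold change, knockout over WT (horizontal axis), of each tested gene by list, class II genes at the top; red points passed an adjusted p of 0.05, open points did not, and blue bars are list medians. No class II gene passed (median -0.07), beside 2.81% of all tested genes. Called higher were 5 of 10 endosomal processing genes and 5 of 16 class I genes, beside 1.76% of all tested genes.

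Libraries held 14466640 to 20851733 counts. Mavs itself, the check of the labels, was lower in all 3 knockout libraries (8.99, 12.8 and 9.45 CPM) than in the WT libraries (33.9, 39.7 and 39.7 CPM). The counts of marker genes that rose or fell, below, stand beside 1.76% of all tested genes called higher and 1.05% called lower. Marker sums are over different genes and not divided by length, so they do not compare numbers of cells between types. Transcripts of macrophage markers were abundant. The dendritic genes Flt3, Zbtb46, Itgax, Dpp4 and Kmo summed to 338.5 to 392.9 CPM in knockout and 362.4 to 461.0 CPM in WT libraries (3 of 5 fell). Most of that sum was Itgax (0.25 on the log2 scale, SE 0.11, did not pass), while those that fell were Flt3 (-2.01), Kmo (-1.32) and Zbtb46 (-1.20). The 9 macrophage markers, a class II expressing type, summed to 8434 to 9005 CPM in knockout and 7101 to 8074 CPM in WT libraries (0 passed). Estimates on the log2 scale went both ways. Of the 9, 6 were positive, from 0.26 (Cd68) to 0.64 (Mrc1), and Csf1r (-0.07), Adgre1 (-0.24) and Apoe (-0.84) were negative. C1qb (2695 CPM on average in knockout and 2151 CPM in WT hosts) held the largest part of the sum. Of 7 markers of type 1 dendritic cells 3 fell, with log2 fold changes of -2.18 for Xcr1, -1.85 for Itgae and -0.96 for Wdfy4. The other 4 did not pass: Clec9a (-0.07, SE 0.28), Irf8 (0.21, SE 0.20), Batf3 (-0.65, SE 0.29) and Cadm1 (-0.87, SE 0.33). The sum of that list, mostly Irf8, was 488.7 to 534.6 CPM in knockout and 428.8 to 736.5 CPM in WT libraries. Of 7 markers of type 2 dendritic cells 1 rose, Sirpa (0.56), and 1 fell, Cd209a (-1.86). Their sum was 2813 to 4483 CPM in knockout and 2403 to 2683 CPM in WT libraries. Most of it was Mgl2, which did not pass, so the sum does not stand for the whole list. Of 7 markers of mature migratory cells 3 of 6 tested rose: Ccr7, Ccl22 and Cd200. The sum of these 7 was 533.5 to 751.6 CPM in knockout and 409.3 to 460.9 CPM in WT libraries. Most of that was Ccl17, which did not pass. The monocyte sum (4351 to 13604 CPM in knockout and 1776 to 3084 CPM in WT libraries) was led by Chil3, the 1 of 5 that rose. Sums of the plasmacytoid (131.9 to 150.4 CPM in knockout and 105.1 to 131.9 CPM in WT libraries), T cell (20.2 to 29.5 CPM in knockout and 31.5 to 44.8 CPM in WT libraries), natural killer (21.2 to 41.1 CPM in knockout and 9.29 to 31.8 CPM in WT libraries), neutrophil (31.28 to 33.03 CPM in knockout and 22.3 to 30.1 CPM in WT libraries) and tumour epithelial lists (419.1 to 676.3 CPM in knockout and 362.6 to 540.9 CPM in WT libraries, nearly all Cdh1) held 0 genes that passed. The largest part of the T cell sum was Cd2 (-0.88 on the log2 scale, SE 0.22, did not pass). Of the 7 T cell genes 4 had positive estimates, and the list median was 0.27, so that sum does not stand for the whole list. Of the tumour epithelial list, Krt8, Krt18 and Krt19 had 0 to 3 reads in each library. The part of the dendritic, macrophage and monocyte markers in the values of the class II genes was not tested.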

How the data were processed

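The authors deposited raw read counts per Ensembl mouse gene, 1 column per library, matched to samples by name. Per the submitters' processing notes, the build was mm10 and the tools used were HISAT2, HISAT, HTSeq and DESeq2, without versions or settings. The sources used here do not state the annotation release, strand setting or cell isolation method. The labels' protocols name a DNA library kit and no strand marking. Symbols and positions came from GENCODE M21 (GRCm38, the mm10 build), which matched 26356 of 26519 identifiers.

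Counts were tested in edgeR 4.0.16 (R 4.3.3) by its quasi-likelihood F test, host genotype being the one factor, after TMM scaling and filterByExpr at a count of 10 and a total of 15. P-values were adjusted by Benjamini-Hochberg over 12580 genes and called at 0.05, and SEs and 95% intervals were taken from that model. RPKM divides scaled CPM by exon length. The procedure was tested on simulated counts. Likeness used log2 CPM with a prior count of 2. Alternatives were other scalings and filters, DESeq2 1.42.0, limma-voom (3.58.1), robust dispersion, a replicate block and leaving out each library.

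The members, lists and ratios were chosen with earlier results of these data known. Named genes are all members, those of each list past the threshold (at most 6) or the 2 with the smallest p, and defining markers; Rfx5, Ifi30, Cst3, March1, Cd83 and Nlrc5 were named for their role, and the ratio of H2-Eb1 to H2-Ab1 added, after their values were seen. The promoter motifs were set after the promoters were read. Some genes that these rules select are not reported here.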

Additional observations from a re-analysis of the deposited data

How the results depend on the processing

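Across the 14 alternative fits, 0 of the 10 genes were called in every fit but the one with no filter on low counts, which called 1, H2-Ob (-0.54, edgeR adjusted p = 0.0440). With library size alone H2-Aa was -0.07 and H2-Ab1 -0.14, H2-Eb1 was 0.08, Cd74 0.07, Ciita -0.40, H2-DMb1 -0.30 and the H2-DMb sum -0.31 (edgeR adjusted p = 0.0739). On leaving out single libraries H2-Ab1 ranged from -0.05 to 0.09 and H2-DMa from -0.08 to 0.09 on the log2 scale. Leaving out 1 library gave 0.05 to 0.17 for H2-Aa, -0.17 to -0.10 for H2-DMb1, -0.35 to -0.15 for H2-DMb2, -0.57 to -0.09 for H2-Oa, -0.72 to -0.20 for H2-Ob, 0.10 to 0.34 for Cd74 and -0.34 to -0.06 for Ciita, and log2 ratio differences kept their sign.

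The count of all called genes was 354 (222 higher, 132 lower). It was 924 (531 and 393) with no filter, 778 (437 and 341) with DESeq2's test, and split 102 higher and 341 lower with library size alone. Without single libraries it ran from 36 to 277 (22 to 181 higher, 9 to 96 lower). The cause was not tested. A replicate block gave 414 calls in all and 0 among the members. The labels do not say whether equal replicate numbers pair the libraries. Over all tested genes, deviations from the group means of same-numbered libraries correlated at 0.04, 0.09 and -0.04. Those of libraries with unlike numbers ran from -0.14 to 0.12. Correlations over all genes cannot show whether some genes follow a pairing, so none is concluded or excluded. At 3 libraries per group, changes of the size seen for H2-Eb1 or Cd74 may go uncalled, and H2-Oa, with 103 reads in its lowest library, is the least precise member.

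For the lists, library size alone gave medians of -0.02 for promoter factors, 0.04 for Ciita regulators, 0.31 for endosomal processing, 0.05 for turnover and transport, -0.01 for Cd74 partners and 0.28 for class I, with 2 processing and 1 class I genes called. With no filter the calls were 4 for Ciita regulators, 8 for processing, 2 for turnover, 1 for Cd74 partners and 9 for class I. DESeq2's test called 3, 2 and 8 of the regulators, turnover and class I lists, limma-voom 1 regulator, and the replicate block 3 regulators and 1 turnover gene. A minimum mean of 5 CPM called 1 regulator and gave medians of 0.26 for turnover and 0.38 for Cd74 partners. Without single libraries the calls ran from 0 to 3 for regulators, 1 to 4 for processing, 0 to 1 for turnover, 0 to 1 for partners and 0 to 5 for class I, and the medians from 0.38 to 0.53 for processing, 0.05 to 0.28 for turnover and 0.11 to 0.42 for partners.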
